A study of Mus musculus with 28 samples.

Results

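The hair-type (hard) keratins Krt31, Krt34, Krt35, Krt36, Krt81, Krt84 and Krt86 were taken by gene symbol, and all 7 were found among the 55536 mouse gene identifiers that were counted. They were followed through 28 bulk RNA-seq libraries of sorted interfollicular epidermis (IFE), the skin epithelium between the hair follicles. All mice carried a tamoxifen-inducible Cre (CreER) and the Cre-dependent red reporter RosatdTomato on an otherwise wild-type background, with the Cre driven by Slc1a3, Aspm, K14 or Dlx1. All were given tamoxifen (100 ug/ml) on 5 consecutive days at postnatal days 30 to 34 and were harvested 2 weeks later, at postnatal day 49, in telogen, the resting phase of the hair cycle. From each line the labelled cells (written Slc1a3+, Aspm+, K14+ or Dlx1+, gate P6) and total IFE (gate P5) were sequenced. Back skin gave 3 libraries each of Slc1a3+ and Aspm+ cells and of the totals of both lines, and 2 each of K14+ cells and their total. Tail skin gave 2 libraries each of Slc1a3+, Aspm+ and Dlx1+ cells and of the 3 totals. The Dlx1 line was sequenced in tail only and the K14 line in back only, so neither can be compared between sites. Total counts ran from 7738262 to 37670589 per library. Which libraries came from 1 animal is not stated, so p-values measure the spread between libraries, which may be partly technical.

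Keratins are the intermediate filament proteins of epithelia, and a filament needs a type I and a type II keratin in equal amounts. Krt31, Krt34, Krt35 and Krt36 are type I hard keratins, and Krt81, Krt84 and Krt86 are type II hard keratins. Hard keratins build hair, nail and the filiform papillae of the tongue, where their cysteine-rich ends are cross-linked with each other and with keratin-associated proteins. Mouse tail epidermis is divided into scales, which cornify without a granular layer and are known for hard keratins such as Krt36 and Krt84, and interscale bands, which carry Krt10 and Krt2 and resemble back epidermis. In hair, Krt31, Krt34, Krt81 and Krt86 belong to the cortex, and Krt35 appears earlier, in the matrix and the lower shaft.

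All type I members lay on chromosome 11 of GRCm38 and all type II members on chromosome 15, in the 2 keratin clusters, and no annotated gene overlapped any of them. Krt36 (ENSMUSG00000020916) spanned bases 100102007 to 100105626 on the minus strand of chromosome 11. Krt84 (ENSMUSG00000044294) spanned bases 101525026 to 101532820 on the minus strand of chromosome 15. RefSeq start sites (GRCm38.p6) were found for 4 of the 7 members. The 250 bases before the start sites of Krt36 and Krt84, the members abundant in tail, are given so that windows can be compared. Beside them are those of Krt31 and Krt34, cortex keratins that were scarce. Capitals mark matches, on either strand, to the TATA box TATAAA, to the LEF1 and TCF motif (CTTTGAA, with a last pair of bases of AT, TA or TT also taken) and to TTTAT, the core preferred by posterior Hox proteins, which overlaps TATAAA on the other strand. All 4 genes are on the minus strand, and the sequences read 5′ to 3′ towards the start site.
Krt36, chr11:100105627-100105876: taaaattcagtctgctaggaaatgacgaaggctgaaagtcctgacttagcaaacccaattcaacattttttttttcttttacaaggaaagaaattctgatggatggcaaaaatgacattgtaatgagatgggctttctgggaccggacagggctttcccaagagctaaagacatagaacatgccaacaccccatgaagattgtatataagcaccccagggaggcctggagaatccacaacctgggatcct
Krt84, chr15:101532821-101533070: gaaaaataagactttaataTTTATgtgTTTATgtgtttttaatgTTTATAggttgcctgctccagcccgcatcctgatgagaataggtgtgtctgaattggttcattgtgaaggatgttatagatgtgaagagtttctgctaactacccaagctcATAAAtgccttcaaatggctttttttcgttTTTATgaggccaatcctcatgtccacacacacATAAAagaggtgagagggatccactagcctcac
Krt31, chr11:100050552-100050801: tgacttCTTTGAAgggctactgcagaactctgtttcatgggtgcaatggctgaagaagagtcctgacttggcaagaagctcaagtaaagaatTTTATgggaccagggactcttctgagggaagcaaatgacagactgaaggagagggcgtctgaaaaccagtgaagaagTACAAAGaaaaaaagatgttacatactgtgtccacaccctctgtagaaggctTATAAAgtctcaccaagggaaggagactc
Krt34, chr11:100041555-100041804: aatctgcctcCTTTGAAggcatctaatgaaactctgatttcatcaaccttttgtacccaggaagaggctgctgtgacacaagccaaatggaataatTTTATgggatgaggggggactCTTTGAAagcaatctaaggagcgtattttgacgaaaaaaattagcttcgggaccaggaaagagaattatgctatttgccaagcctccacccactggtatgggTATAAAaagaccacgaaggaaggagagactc
The windows of Krt31 and Krt34 each held TATAAA on the gene's own strand, 29 and 31 bases before the start site. Each also held 2 LEF1 and TCF motifs and 2 TTTAT matches. Those of Krt36 and Krt84 held no LEF1 and TCF motif. Krt84 held 6 TTTAT matches and a TATAAA on the opposite strand, whereas Krt36 held no exact match to any of these motifs. Of 32851 windows of this length, 12.4% held TATAAA, 14.8% a LEF1 and TCF motif, and 37.3% TTTAT, and 0.393% held TTTAT at least 6 times. TATAAA on the gene's own strand, starting 20 to 44 bases before the start site, was in 2.11%. A match is a description of the letters and not of binding.

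Krt36 and Krt84 made up nearly all of the hard keratin message in tail. Levels are CPM, counts scaled to library size (here TMM-scaled). Krt36, a type I keratin of nail and tongue, was at 2130 and 3082 CPM in tail Slc1a3+ cells, 1629 and 2381 in their total, 1732 and 1968 in Aspm+ cells, 1516 and 1718 in their total, 1099 and 964.2 in Dlx1+ cells, and 823.1 and 748.2 in their total. Every tail library was thus above 700 CPM, and the 4 libraries of the Dlx1 line were the lowest. Krt84, a type II keratin of the tongue and nail, was at 1823 and 3113 CPM in tail Slc1a3+ cells, 1476 and 2594 in their total, 2115 and 2314 in Aspm+ cells, 1765 and 2101 in their total, 1314 and 1274 in Dlx1+ cells, and 997 and 1041 in their total. Its order over the lines was less even, since replicate 1 of the Slc1a3 line lay below both replicates of the Aspm line. In back, 13 of 16 libraries held less than 1 CPM of Krt36, and the other 3 are described further on.

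**Figure D1:**
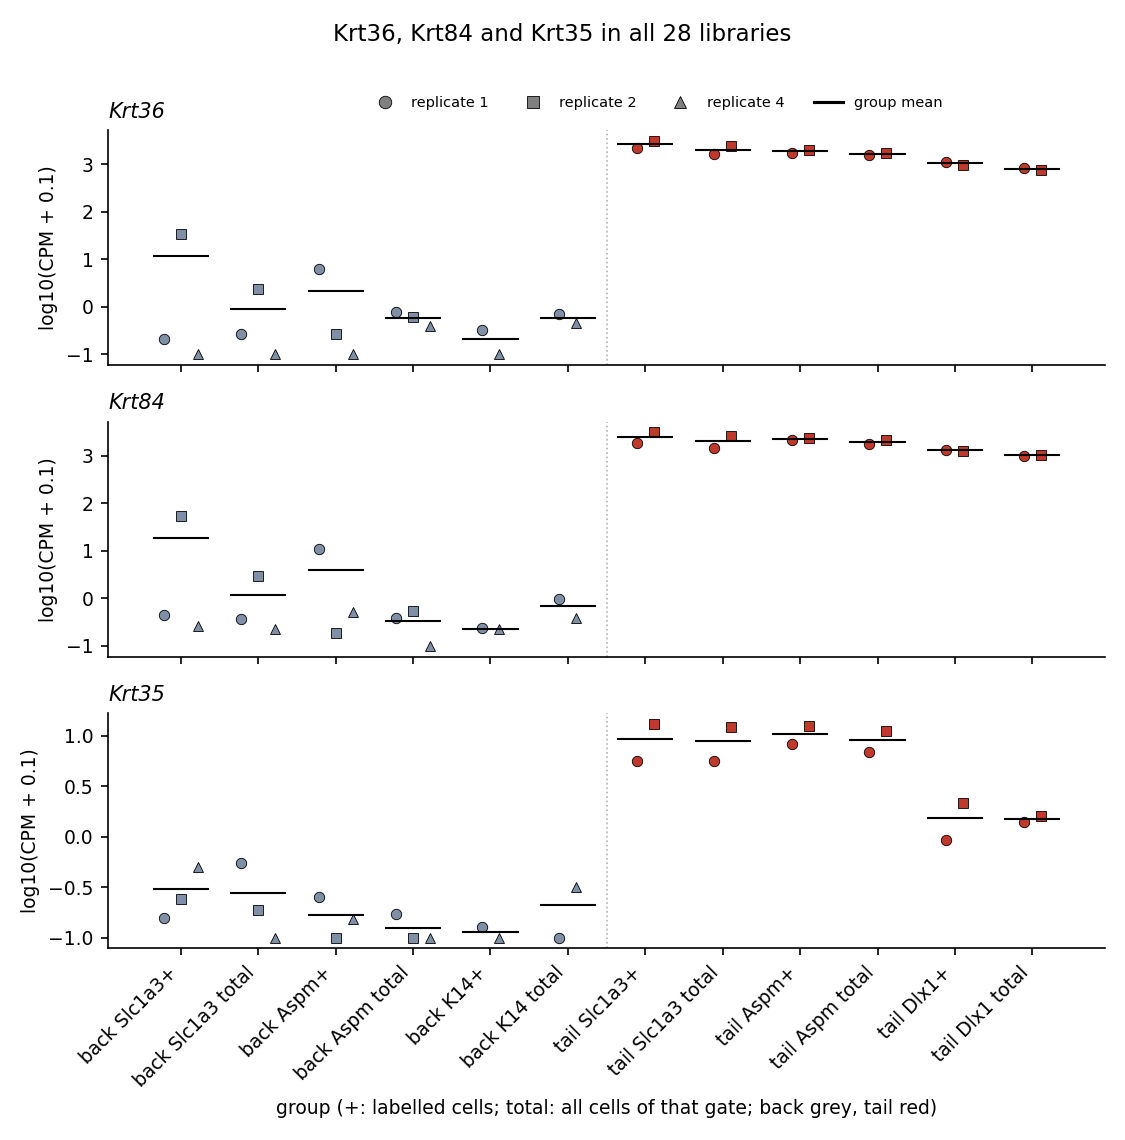
Krt36, Krt84 and Krt35 in all 28 libraries as log10(CPM + 0.1), by group on the horizontal axis, with symbols for the replicate and a bar for the mean CPM of the group. All 12 tail libraries (red) lie above all 16 back libraries (grey) for each of the 3 genes, and the Dlx1 line is the lowest of the tail lines.

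Per kilobase of exon, Krt36 and Krt84 together made 99.0% to 99.9% of the summed level of the 7 members in the 12 tail libraries. The type I members summed to 1.14 to 1.85 times the type II members on this scale, with the highest ratios in the Slc1a3 line (1.46 to 1.85) and 1.14 to 1.36 in the other lines. Spread within the groups was largest in the Slc1a3 line. Krt36 had means of 2606 ± 673 CPM in tail Slc1a3+ cells, 1850 ± 167 in Aspm+ cells and 1031 ± 95.05 in Dlx1+ cells (SD, n = 2 each). Krt84 had means of 2468 ± 912, 2214 ± 141 and 1294 ± 28.2 CPM in the same groups (SD, n = 2 each). The 7 members were 2.25% to 4.73% of the level of 53 keratin genes per kilobase in tail (median 3.25%) and 0.00191% to 0.147% in back. For comparison on the same scale, the median level in tail was 1001 CPM per kilobase for Krt36, 679.5 for Krt84, 2687 for Krt10, the type I keratin of suprabasal cells, and 2085 for Krt2, the type II keratin of interscale. The basal keratins Krt14 and Krt5 were at medians of 21221 and 17569 CPM per kilobase in tail, so the sorted cells carried the markers of the epidermis that the labels name.

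Krt35, a type I keratin of the forming hair shaft, was present at low level in every tail library. It was at 5.53 and 13.0 CPM in tail Slc1a3+ cells, 5.58 and 12.1 in their total, 8.21 and 12.2 in Aspm+ cells, 6.83 and 10.97 in their total, 0.823 and 2.07 in Dlx1+ cells, and 1.301 and 1.503 in their total. The Slc1a3 and Aspm lines were alike in range and the Dlx1 line lay below both without overlap. In back it ran from 0 to 0.446 CPM (median 0.0540), with no count in 6 of 16 libraries.

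The 4 remaining members were scarce. Krt31, a major cortex keratin, was the only member with a count in all 28 libraries. It ran from 0.527 to 2.04 CPM in back (median 0.994) and from 0.176 to 10.6 in tail (median 1.69), so the sites overlapped. Krt81 had no count in 13 of 16 back libraries and at most 3 counts in the others, and ran from 0 to 7.95 CPM in tail. Krt86 ran from 0 to 1.53 CPM in back and from 0.255 to 3.30 in tail. Krt34 had a count in 7 of 12 tail libraries and in 1 of 16 back libraries (3 counts), and it was too low to be tested. The highest value of all 4 in tail came from the same library, replicate 2 of the Aspm line's total, at 10.6 CPM of Krt31, 1.58 of Krt34, 7.95 of Krt81 and 3.30 of Krt86. These 4 genes share sequence. Of the 50-base windows of their transcripts, 28.1% for Krt31, 33.1% for Krt34, 37.7% for Krt81 and 43.3% for Krt86 also occurred in another gene, mostly between Krt31 and Krt34 and between Krt81 and Krt86, so their split is uncertain. The same share was 0.432% for Krt36, 0 for Krt84 and 2.704% for Krt35.

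**Figure D2:**
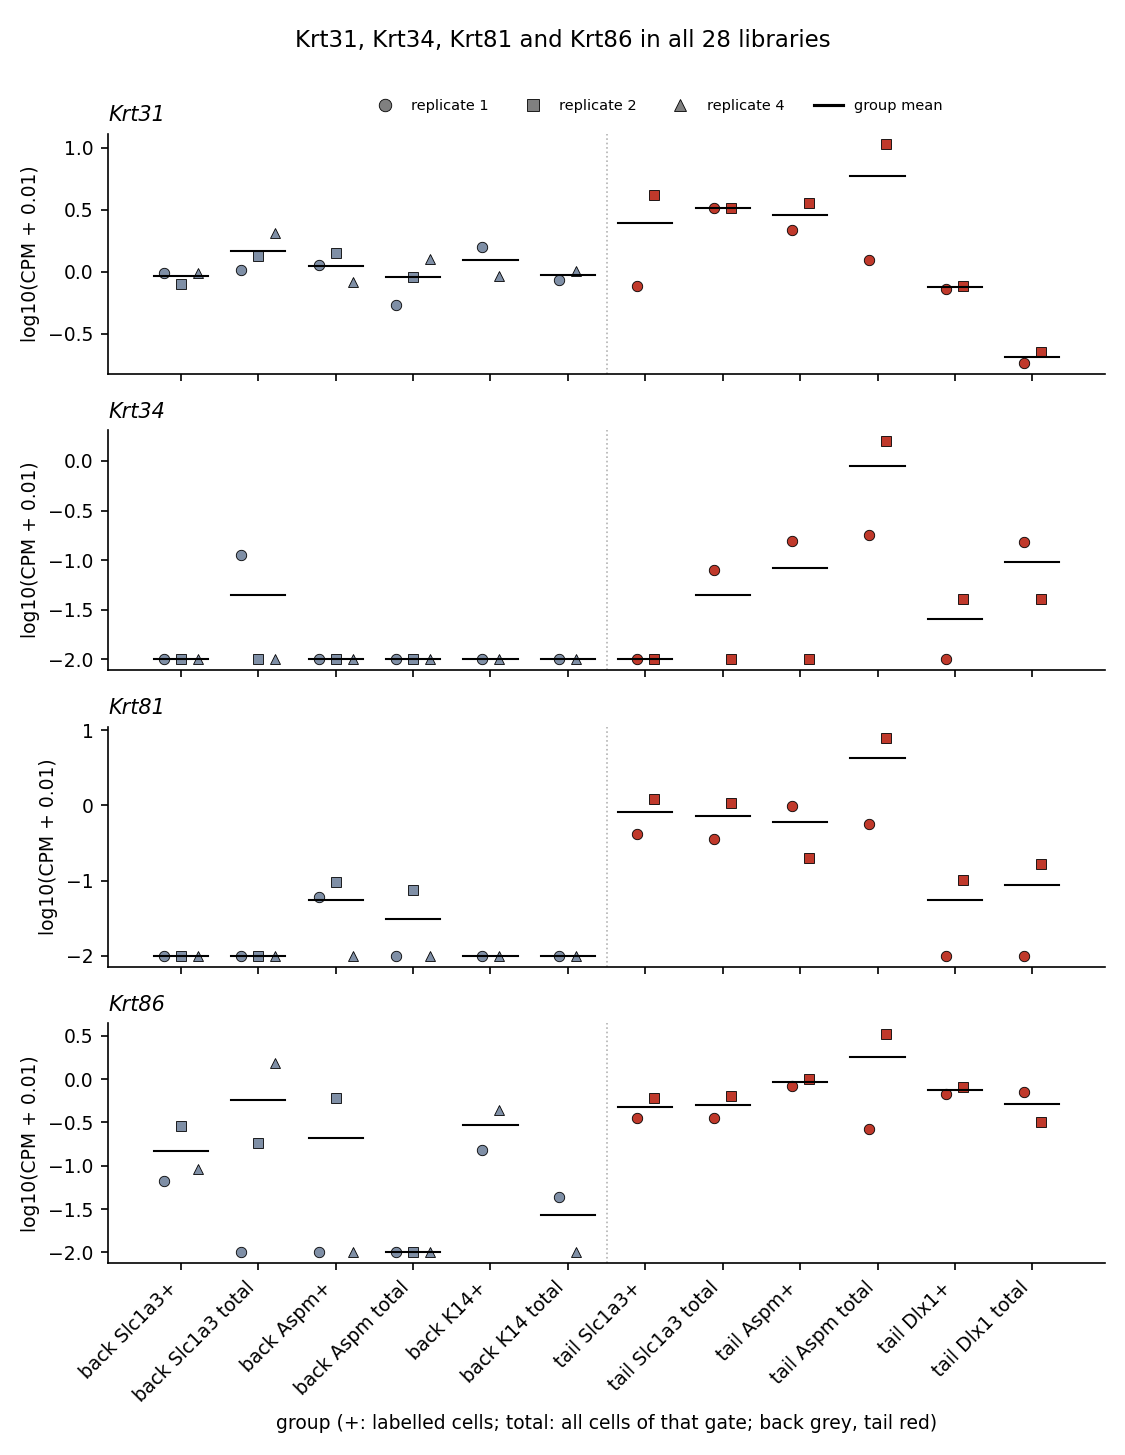
Krt31, Krt34, Krt81 and Krt86 in all 28 libraries as log10(CPM + 0.01), with symbols for the replicate and a bar for the mean CPM of the group, so that a library without a count lies at -2. The highest tail value of each gene is replicate 2 of the tail Aspm total, and Krt31 is present in every back library.

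The site comparison asks which members differ between tail and back IFE. In total IFE of the Slc1a3 and Aspm lines, all 6 tested members were higher in tail by edgeR's quasi-likelihood test at a Benjamini-Hochberg adjusted p under 0.05 over 17493 genes. Of all genes, 22.5% were called higher in tail in that comparison. The median log2 fold change was 6.97 over the 6 members and -0.03 over all genes. Krt35 and Krt81 were at most 0.446 and 0.0854 CPM in any back library. They passed the low-count filter by their tail libraries, which favours this direction. The members were also chosen with earlier results of these data known, so the count of 6 is a description. Krt36 was 11.33 log2 units higher (SE 1.27, adjusted p = 1.66e-06), from means of 0.812 and 0.494 CPM in the back totals of the Slc1a3 and Aspm lines (n = 3 each) to 2005 and 1617 CPM in tail (n = 2 each). Krt84 was 11.86 log2 units higher (SE 1.41, adjusted p = 3.18e-06) and Krt35 was called (adjusted p = 3.86e-08), with means of 8.83 CPM in tail and 0.177 in back in the Slc1a3 line and 2 counts in all in the back total of the Aspm line. As ratios of group means, Krt36 was 2469-fold higher in tail in the Slc1a3 line's total and 3273-fold in the Aspm line's.

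Krt31 rose less, by 1.95 log2 units (SE 0.48, adjusted p = 0.00203). The Dlx1 line, which has no back libraries, is not in this comparison. Its tail totals held 0.176 and 0.215 CPM of Krt31, below the lowest back library of any line (0.527 CPM). Krt81 had no count in the back total of the Slc1a3 line, where tail was at least 3.43-fold higher, taking 3 counts per library as the floor. Its fitted call (adjusted p = 0.000199) gives no firm fold. Krt86 was called (adjusted p = 0.0131), yet its means in the Slc1a3 line were 0.487 CPM in tail and 0.568 in back, and in the Aspm line 1.78 CPM in tail against no count in back. Most of the 0.568 CPM came from replicate 4 of the back Slc1a3 total (12 counts, 1.53 CPM), the library with the fewest counts (7738262). Replicates 1 and 2 of that group held 0 and 4 counts of Krt86. Without replicate 2 of the tail Aspm total, Krt31 (0.82 log2 units, adjusted p = 0.203) and Krt86 (2.76 log2 units, adjusted p = 0.118) were no longer called, and the other 4 were.

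Between labelled cells of the sites, 4 of 6 tested members were higher in tail Slc1a3+ cells (Krt35, Krt36, Krt81 and Krt84), against 19% of all genes. In tail Aspm+ cells 3 of 6 were higher (Krt35, Krt36 and Krt84), against 12.7% of all genes. Here too Krt35 and Krt81 entered the test by their tail libraries. Krt36 was 7.76 log2 units higher in Slc1a3+ cells (SE 1.49, adjusted p = 0.00053) and 9.91 in Aspm+ cells (SE 1.66, adjusted p = 0.000265). Without back Slc1a3+ replicate 2 the first difference was 15.14 log2 units, and without back Aspm+ replicate 1 the second was 14.01, values that give no firm fold, since the back libraries left held 0 to 6 counts of Krt36. Krt35 was called in Slc1a3+ cells (adjusted p = 2.88e-05) and in Aspm+ cells (adjusted p = 5.33e-06), where the 3 back libraries held 9 and 4 counts in all. Taking 3 counts per library as the back floor, it was at least 78.5-fold higher in tail Aspm+ cells, and in Slc1a3+ cells the means were 9.26 CPM in tail and 0.201 in back. With the Slc1a3+ groups alone in the fit, Krt36 (7.78 log2 units, SE 2.57, adjusted p = 0.0858) and Krt84 (7.07 log2 units, SE 2.60, adjusted p = 0.107) were not called between sites, although their differences were as large. Over all 28 libraries, Krt35, Krt36 and Krt84 showed no overlap between tail and back, which 5.93% of the 17493 genes did with tail higher, while Krt31, Krt81 and Krt86 overlapped. In bulk libraries, fewer cells of a type and less message per cell cannot be told apart.

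Both back libraries that held Krt36 above 5 CPM were of labelled cells. Back Slc1a3+ replicate 2 held 34.7 CPM of Krt36 (744 counts) and 54.0 CPM of Krt84 (1158 counts), and replicates 1 and 4 of that group held 0.114 and 0 CPM of Krt36. Back Aspm+ replicate 1 held 6.06 CPM of Krt36 (119 counts) and 10.9 CPM of Krt84 (214 counts). The total of the Slc1a3 line with number 2 came next, at 2.27 and 2.82 CPM. Relative to the median tail library, back Slc1a3+ replicate 2 held 2.07% of the Krt36 level and 3.01% of the Krt84 level, and back Aspm+ replicate 1 held 0.362% and 0.607%.

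Other genes of tail were measured in the same back libraries. Taking 12 further genes with at least 20 CPM in every tail library and a back median of at most 1% of the tail median, among them Krt2, Hoxc13, Hoxd9, Fras1, Igfbp2 and Nav1, back Slc1a3+ replicate 2 held a median of 1.298% of the tail level and the other 15 back libraries 0% to 0.527%. In it 7 of the 12 genes were above 1% of the tail level, against 0 to 4 in each other back library. Krt2 was at 133 CPM there and at 5.43 to 17.6 CPM in the other back libraries. In back Aspm+ replicate 1 the median was 0.388% and Krt2 was at 13.6 CPM. Whether material from tail entered these libraries was not tested. Within back, edgeR called no member between labelled cells and total of any line, where it called 0.109% of genes for Slc1a3+, 0% for Aspm+ and 0.00572% for K14+ cells, and 2, 1 and 0 members had an unadjusted p under 0.05. With the replicate number as a block, Krt84 alone was called by edgeR, in back Slc1a3+ cells (3.83 log2 units, SE 0.68, adjusted p = 0.0413, with 0.354% of genes called). It was at 0.343, 54.0 and 0.162 CPM in labelled cells of replicates 1, 2 and 4 and 0.274, 2.82 and 0.128 CPM in their totals. In that line the correlation of the paired libraries (0.180 to 0.216) was within that of different lines, so its pairing is not clear.

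**Figure D3:**
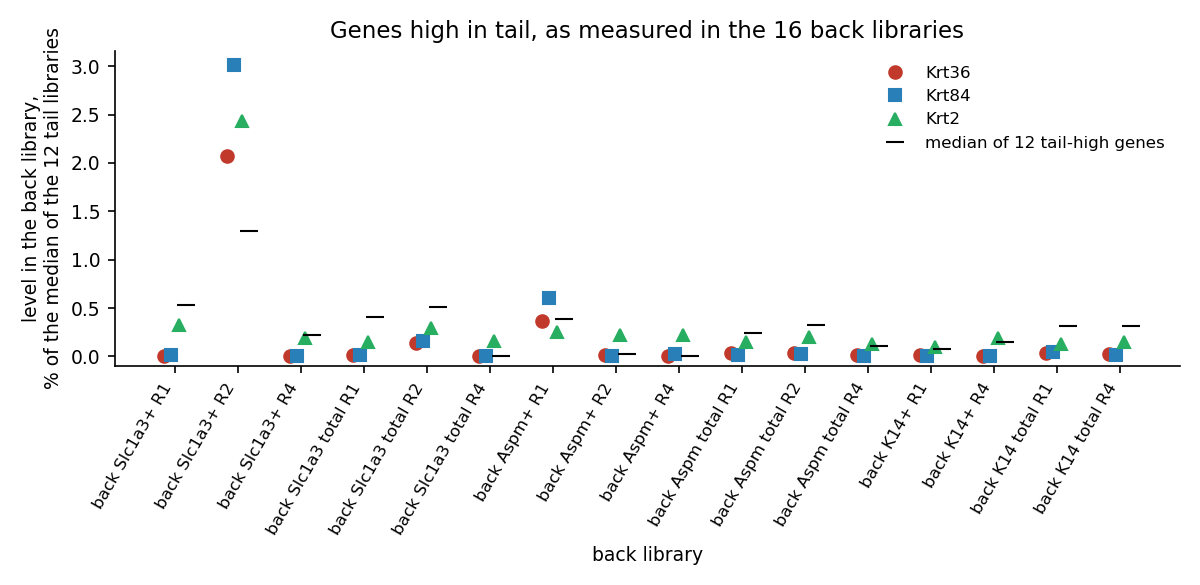
Level of Krt36, Krt84, Krt2 and of the median of 12 genes high in tail in each of the 16 back libraries, as a percentage of the median of the 12 tail libraries (R: replicate). Back Slc1a3+ replicate 2 is the highest on all 4 measures, and back Aspm+ replicate 1 is the next for Krt36 and Krt84.

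Between lines within tail, every library of the Dlx1 line held less Krt36, Krt84 and Krt35 than every library of the Slc1a3 line. Of all genes, 13.1% were higher in the Slc1a3 line without overlap. Whether the 3 members passed a test depended on the libraries in the fit. With all 28 libraries in the fit, none of the 6 tested members was called between Slc1a3+ and Dlx1+ cells by edgeR (5.47% of all genes were), although 3 had an unadjusted p under 0.05, and DESeq2 called Krt35 of the 2 members for which it gave an adjusted p. Krt36 was 1.34 log2 units higher in Slc1a3+ cells with an SE of 1.34 in that fit, which shares 1 estimate of spread per gene between sites. A fit of the 12 tail libraries alone was added after the data were seen. It called 3 of 6 members higher in Slc1a3+ than in Dlx1+ cells and none lower, where it called 13.6% of 15815 genes. Krt36 was 1.35 log2 units higher (SE 0.20, adjusted p = 0.00113), Krt84 0.94 (SE 0.25, adjusted p = 0.0225) and Krt35 2.64 (SE 0.52, adjusted p = 0.00605). A fit of those 2 groups alone called the same 3 members.

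Krt35, Krt36 and Krt84 were called between the totals of the Slc1a3 and Dlx1 lines too. In the fit of tail libraries, Krt36 was 1.36 log2 units higher in the Slc1a3 line's total than in that of the Dlx1 line (SE 0.20, adjusted p = 0.00254), Krt84 1.004 (SE 0.25, adjusted p = 0.0254), Krt35 2.67 (SE 0.51, adjusted p = 0.0105) and Krt31 4.02 (SE 0.96, adjusted p = 0.0231). That is 4 of 6 members against 8.02% of all genes. For Krt31 the Dlx1 totals held only 5 and 7 counts (0.176 and 0.215 CPM), so its folds against them are not firm. Dlx1+ cells held 14 and 25 counts of it (0.720 and 0.760 CPM). With all 28 libraries only Krt31 was called (4.01 log2 units, adjusted p = 0.0272, where 1.92% of genes were called), and it lost the call without replicate 1 of the Slc1a3 total or without either replicate of the Dlx1 total (adjusted p of 0.226, 0.105 and 0.367), while its difference stayed at 3.83 to 4.15 log2 units under the 13 alternatives run. With those 2 groups alone in the fit, Krt84 was not called (adjusted p = 0.0543). The difference between the Slc1a3 and Dlx1 lines in labelled over total cells was -0.01 log2 units for Krt36 (SE 0.28, adjusted p = 1) and -0.06 for Krt84 (SE 0.35, adjusted p = 1) in the tail fit, where 0.0569% of genes were called. The interval of that difference for Krt36 ran from -0.56 to 0.54, and with the replicate number as a block in the tail libraries, which called 0.645% of genes, it ran from -0.14 to 0.12 (-0.01 log2 units, SE 0.07, adjusted p = 0.99).

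The Aspm line lay between them for Krt36. With all 28 libraries no member was called between Aspm+ and Dlx1+ cells (2 had an unadjusted p under 0.05), where 0.0915% of genes were. Aspm+ cells held more Krt35 than Dlx1+ cells in the tail fit (2.78 log2 units, SE 0.52, adjusted p = 0.0177), 1 of 6 members against 0.639% of genes, while Krt36 (0.85 log2 units, adjusted p = 0.0819) and Krt84 (0.78 log2 units, adjusted p = 0.283) were not called, although both were with the 2 groups alone (adjusted p = 0.0123 and 0.0200). Of the totals, the Aspm line's exceeded that of the Dlx1 line for Krt31, Krt35 and Krt36 in the tail fit, 3 of 6 members against 0.575% of genes. Krt36 was 1.05 log2 units higher there (SE 0.20, adjusted p = 0.0249) and Krt31 4.89 (SE 0.98, adjusted p = 0.0333). With all 28 libraries Krt31 was the 1 member called by edgeR (4.87 log2 units, adjusted p = 0.0444, against 0.0343% of genes). Both Krt31 folds rest on 5 and 7 counts in the Dlx1 totals. Without replicate 2 of the tail Aspm total, none of these 3 calls was made in the tail fit. Krt36 was then at 0.95 log2 units (adjusted p = 0.283) and Krt35 at 2.28 (adjusted p = 0.268, against 2.67 log2 units with it), and Krt31 at 2.62 (adjusted p = 0.692). Between Slc1a3+ and Aspm+ cells no member was called with all 28 libraries (0.492% of genes were, and 0 members had an unadjusted p under 0.05) or in the tail fit (1.73% of genes, 1 member), with Krt36 at 0.50 log2 units (95% interval 0.10 to 0.89, adjusted p = 0.209) and Krt84 at 0.16 (-0.32 to 0.64, adjusted p = 0.771). The comparisons against the Dlx1 line share its libraries.

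**Figure D4:**
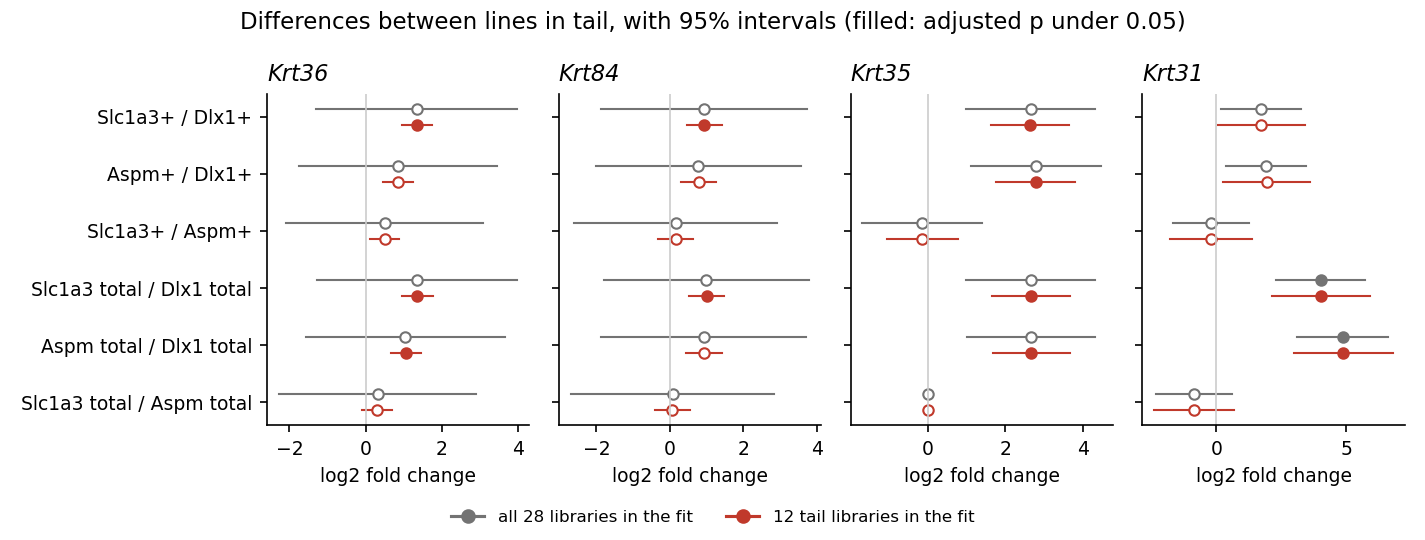
Log2 fold changes between lines in tail for Krt36, Krt84, Krt35 and Krt31, with 95% intervals (not drawn where the fold change is under 0.02), from the fit of all 28 libraries (grey) and of the 12 tail libraries (red), with filled symbols for an adjusted p under 0.05. The estimates of both fits lie together, and the grey intervals of Krt36 and Krt84 are wider.

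Across both gates, Krt35, Krt36, Krt81 and Krt84 were higher in all 8 libraries of the Slc1a3 and Aspm lines than in all 4 of the Dlx1 line, and 2.85% of genes were. For Krt81 this is not firm. Replicate 2 of the Aspm+ cells held 3 counts (0.187 CPM) and replicate 2 of the Dlx1 total 5 counts (0.153 CPM), so only scaling to library size parts them. Krt31 and Krt86 overlapped. Summed levels of genes listed as markers of other skin compartments differed between these lines in both directions. The summed level of 10 inner root sheath and companion layer genes was 60.1 to 125 CPM in the Slc1a3 and Aspm lines and 33.1 to 44.5 CPM in the Dlx1 line, and 5 of 8 tested were higher in Slc1a3+ than Dlx1+ cells in the tail fit, which called 6.75% of all genes higher and 6.85% lower, among them Krt25 (2.82 log2 units, adjusted p = 0.00418), Krt27 and Krt71. Krt71 was at 8.73 to 33.0 CPM in the former lines and 0.154 to 2.91 in the latter. The summed level of 6 sebaceous genes was 840 to 1112 CPM against 647 to 715, with 4 of 6 higher, and that of 5 melanocyte genes was 15.8 to 28.7 CPM against 7.42 to 11.3, with 1 of 5 higher. The summed level of 8 bulge and germ genes, markers of follicle stem cells, went the other way, at 183 to 929 CPM in the Slc1a3 and Aspm lines and 935 to 1691 in the Dlx1 line, with 3 of 8 lower in Slc1a3+ cells. That of 4 endothelial genes was 6.51 to 17.7 CPM in the Dlx1 total and 1.12 to 2.095 in the other tail groups. That of the immune genes was 2.76 to 10.5 CPM in the Slc1a3 and Aspm lines and 1.25 to 2.83 in the Dlx1 line, ranges that overlap. Few genes carried most of some of these sums. Scd1 and Fasn had tail medians of 493 and 319 CPM, where the median sebaceous sum was 887. Postn had 741 CPM where the bulge and germ sum was 909, and H2-Aa 4.90 where the immune sum was 5.80. Of the endothelial genes, Vwf and Pecam1 reached 12.1 and 4.51 CPM in tail, and Cdh5 and Kdr at most 0.614 and 0.429. No gene of the sheath, sebaceous, melanocyte, bulge and endothelial lists was at 0 in every tail library. The part of such cells in the keratin differences was not tested.

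Labelled cells in tail held slightly more Krt36 and Krt84 than the total of the same line. Krt36 was higher in labelled cells in all 6 pairs of line and number, by 0.19 to 0.42 log2 units, and Krt84 by 0.14 to 0.40. Of all genes, 5.72% were higher in all 6 pairs. Without the pairing, edgeR called no member in any of the 3 lines, where it called 0.514% of genes for Slc1a3+, 0.00572% for Aspm+ and 0% for Dlx1+ cells, and at an unadjusted p under 0.05 it had Krt31 in Dlx1+ cells only. With the replicate number as a block in a fit of the tail libraries, added after the data were seen and with 3 residual degrees of freedom, both genes were called in each line and no other member was. Krt36 was then higher by 0.39 log2 units in Slc1a3+ cells (SE 0.05, adjusted p = 1.69e-05), 0.20 in Aspm+ cells (SE 0.05, adjusted p = 0.0294) and 0.40 in Dlx1+ cells (SE 0.05, adjusted p = 2.63e-05). Krt84 was higher by 0.29 (SE 0.05, adjusted p = 0.000652), 0.21 (SE 0.05, adjusted p = 0.0323) and 0.35 log2 units (SE 0.05, adjusted p = 0.000186). That fit called 6.95%, 2.3% and 2.55% of genes. In all 28 libraries the same block called neither gene in tail, with 1.49%, 0.0343% and 0.463% of genes called in the 3 lines. In the Aspm line the correlation of the paired libraries (0.321) was within that of different lines, so its pairing is not clear.

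Summed levels of other epidermal and follicle markers also differed between the gates. The summed level of 14 genes of IFE differentiation was 15282 to 19934 CPM in the labelled tail libraries and 11126 to 14878 in the totals. Krt10 had means of 6692, 7358 and 5842 CPM in Slc1a3+, Aspm+ and Dlx1+ cells and of 4790, 5671 and 4265 CPM in their totals, and edgeR called it in none of the 3 lines with all libraries. The summed level of the 8 bulge and germ genes was lower in labelled cells of each line, at 183 to 233 CPM against 916 to 929 in the Slc1a3 line. Of the tested members of these lists, edgeR called 2 of 8 bulge and germ genes lower in Slc1a3+ cells and no other in any line with all libraries. In the tail fit it called 4, 1 and 3 of the 8 lower in Slc1a3+, Aspm+ and Dlx1+ cells and no differentiation or basal gene. The summed level of 8 basal genes was 115181 to 119315 CPM in Slc1a3+ cells and 98677 to 99074 in their total, 89533 to 92086 against 78950 to 84349 in the Aspm line, and 77250 to 88093 against 66638 to 74269 in the Dlx1 line, with none of the 8 called. The part of these in the higher Krt36 and Krt84 was not tested.

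**Figure D5:**
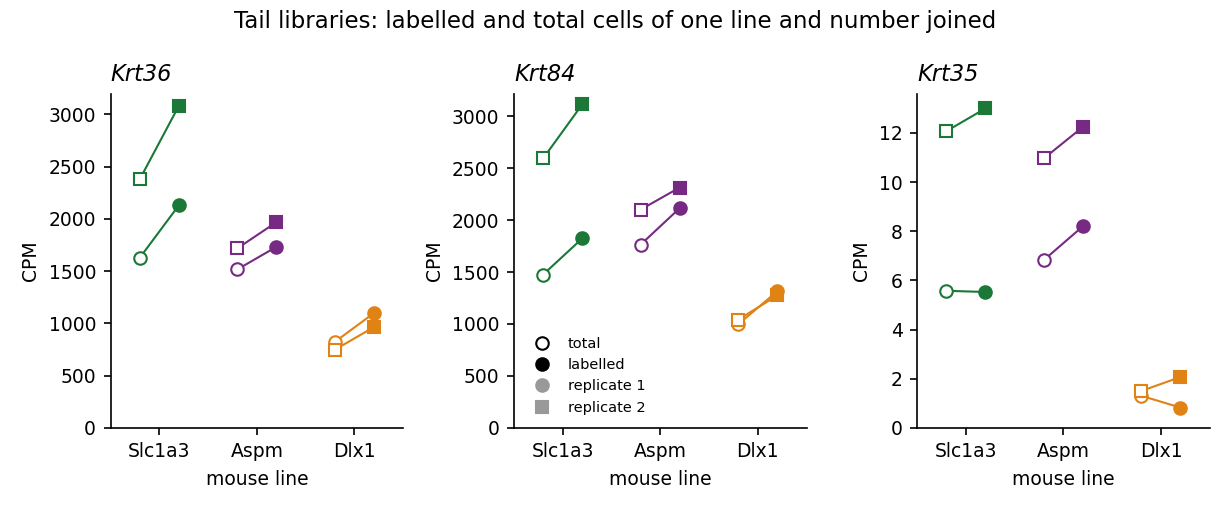
Krt36, Krt84 and Krt35 in the 12 tail libraries (CPM, linear axes from 0), with total (open) and labelled (filled) cells of 1 line and replicate number joined. Krt36 and Krt84 are higher in labelled than in total cells in all 6 pairs, and the Dlx1 line is the lowest for each gene.

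The hair shaft genes that accompany these keratins followed them in part. Of 8 other hard keratins counted, 6 were tested, and in total IFE 4 were higher in tail and 1 lower, where 22.5% of all genes were higher and 23.7% lower. Krt83, Krt87 and Krt33b had medians of 2.28, 2.09 and 0.685 CPM in tail and 0 in back. Their highest tail values, 15.7, 17.8 and 14.8 CPM, were again in replicate 2 of the tail Aspm total. None of them was above 0.484 CPM in any back library, so they passed the low-count filter by their tail libraries. Krt32, a type I keratin of the hair cuticle, went the other way, at 5.61 to 10.98 CPM in tail and 14.8 to 36.4 in back, without overlap (-1.61 log2 units in total IFE, SE 0.19, adjusted p = 4.35e-07). Of the 58 keratin-associated protein genes, whose products cross-link hard keratins in hair, 24 had no count in tail and 40 none in back. Their summed level was 1.37 to 32.4 CPM in tail and 0 to 0.916 in back, against 1792 to 6214 CPM of the 7 members together in tail. Of 13 tested, 12 were higher in tail in total IFE, where 22.5% of all genes were. No gene of this list was above 0.611 CPM in any back library. Those tested therefore passed the low-count filter mainly by their tail libraries, which favours this direction, so the 2 shares are not alike.

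Among regulators of hair keratin genes, 10 of 16 tested were higher in tail and 3 lower in total IFE, against 22.5% and 23.7% of all genes, so the share of lower regulators is near the background. Hoxc13, the homeobox gene needed for hair and nail keratin expression, was at 54.9 to 126 CPM in tail and 0 to 1.79 in back. Dlx3 and Msx2, homeobox genes of the hair matrix, were higher by 6.18 (SE 0.50, adjusted p = 7.85e-10) and 1.89 log2 units (SE 0.19, adjusted p = 2.98e-08), and Gata3, a factor of the inner root sheath, differed by -2.70 (SE 0.11, adjusted p = 3.44e-15). Of 9 tested partners of the hair shaft, 6 were higher and 2 lower (the latter near the 23.7% of all genes). S100a3, a cuticle calcium-binding protein, was at 1.59 to 7.15 CPM in tail and 0 to 0.980 in back. Selenbp1 was at 142.3 to 303.3 CPM in tail and 3.96 to 14.4 in back, and Tgm3 at 417.8 to 718.5 and 128.3 to 320.8. Hephl1 and Krt80 of this list went the other way without overlap. Hephl1 was at 0.0913 to 1.61 CPM in tail and 3.58 to 36.5 in back, and Krt80 at 35.2 to 232.3 and 353.7 to 622.5. Among the 16 regulators, Msx2, Foxn1, Foxq1 and Dlx3 were higher in Slc1a3+ than in Dlx1+ cells in the tail fit. That fit called 6.75% of all genes higher and 6.85% lower there, and the other regulators are not described for it. Msx2 differed by 0.89 log2 units (SE 0.19, adjusted p = 0.00829).

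The 5 members with a mean of at least 1 CPM in tail varied together over the 12 tail libraries. These libraries share lines and gates, so correlations are given as a description. Krt34 and Krt86 were below that level and were not correlated. On log2 CPM, Krt36 and Krt84 had a Pearson r of 0.95, Krt35 had 0.88 with Krt36 and 0.91 with Krt84, and Krt81 was the least tied to Krt36 (0.64). Among 9929 genes of at least 5 CPM, the genes nearest to the mean of the 5 members with at least 1 CPM were Plekhh3 (0.96), Krt24 (0.95), Junb (0.95), Krt25 (0.94), Bnip3 (0.93), Dgat2 (0.92), Dedd2 (0.92), Wfdc17 (0.91), Dbi (0.90) and Far2 (0.90). Nearest to Krt36 were Dgat2, Zbtb7b and Dbi (each 0.97), nearest to Krt84 were Krt24 (0.95), Pdk1 and Dgat2 (both 0.94), and nearest to Krt35 was Krt25 (0.98), an inner root sheath keratin. Nearest to Krt31 were Bnip3 (0.92), Plekhh3 (0.90) and Junb (0.88), and nearest to Krt81 were Junb, Hpgd (both 0.83) and Mxd4 (0.81). Of the 10 genes, 2 were among the nearest 10 in the 6 total libraries alone and 3 in the 6 labelled libraries alone. Krt10 had an r of 0.55 with Krt36 and 0.63 with Krt84, near that of Krt81 with Krt36.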

How the data were processed

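Gene counts of 28 libraries (poly(A) RNA, a non-directional library kit, per the labels' protocols) were analysed as the authors deposited them, 55536 identifiers per library. Trim Galore 0.6.0, STAR 2.7.0e, GRCm38 (mm10) and DESeq2 1.26.0 are named in the submitters' processing notes. The counter, its annotation and its strand setting are not given in the sources used here. Symbols, positions and exon lengths came from the GRCm38 annotation, and start sites from RefSeq.

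Total counts were 7738262 to 37670589 per library (median 20193388). Genes were kept by edgeR's filterByExpr (minimum count 10), which left 17493, scaled by TMM and tested in 1 fit of the 12 groups by edgeR 4.0.16's quasi-likelihood test (robust, 16 residual degrees of freedom) with Benjamini-Hochberg adjustment at 0.05. CPM used TMM-scaled library sizes. Intervals are 95%. The scripts were tested on simulated counts. DESeq2 1.42.0, other scalings, no filter, smaller fits, left-out libraries and a replicate block were tried as alternatives.

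The members and gene lists were chosen with earlier results of these data known. All members were named in each comparison, and of each list up to 4 genes with the lowest p in a comparison described, and other hard keratins with a mean of at least 5 CPM in a tail group. The likeness search took genes with a mean of at least 5 CPM in tail. Labelled and total libraries of 1 line with the same replicate number deviated together from their group means (14 pairs, r of 0.180 to 0.689 over 10376 genes). For 52 pairs of different lines r was -0.129 to 0.343. The numbers were taken as pairs, although r in the back Slc1a3 line (0.180 to 0.216) and the tail Aspm line (0.321) was within that range. In groups of 2 replicates both pairs share 1 r. No 2 replicates held the same counts within sampling noise. Krt85 is not used here.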

Additional observations from a re-analysis of the deposited data

Results flagged for a closer look

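Between back lines, Krt84 in labelled against total cells lay on opposite sides, and neither difference was called by edgeR in the fit of all libraries (adjusted p = 0.837 in the Slc1a3 line and 1 in the K14 line). With the replicate number as a block edgeR called it in the Slc1a3 line (adjusted p = 0.0413) and not in the K14 line (adjusted p = 1), and without the low-count filter it called both (adjusted p = 2.51e-79 and 0.0113). In the Slc1a3 line, replicate 2 held 54.0 CPM in labelled cells and 2.82 in total. Replicates 1 and 4 were slightly higher in labelled cells (0.343 against 0.274 CPM, and 0.162 against 0.128) on 1 to 8 counts per library, too few to tell from no difference. Both pairs of the K14 line were lower in labelled cells (0.143 against 0.879 CPM, and 0.123 against 0.290) on 2 to 26 counts. The difference between the lines in labelled minus total was 17.5 CPM, nearly all of it from replicate 2 of the Slc1a3 line, and it was not tested.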

How the results depend on the processing

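Of 300 alternative counts of called members over 22 results, 256 stayed within 1.5 times the reported count. Of 539 alternative values for single members, 467 kept direction and call, 52 gained a call, 16 lost one and 4 changed sign. The cause of these changes was not tested.

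Between Slc1a3+ and Dlx1+ cells, where 0 members were called with all libraries, 3 were called in the tail libraries alone, also without replicate 2 of the Aspm total, 3 without the low-count filter, 3 with the compared groups alone and 1 by DESeq2. Between Aspm+ and Dlx1+ cells the counts were 1, 1, 3 and 3 for the same settings without DESeq2. Between the totals of the Slc1a3 and Dlx1 lines they were 4, 4, 4, 3 and, by DESeq2, 2. Between the totals of the Aspm and Dlx1 lines they were 3, 0, 5 and 3, and 0 with library totals as scaling or without both back libraries high in Krt36. Between sites, DESeq2, which gave no adjusted p for Krt36 and Krt84, called 2 members in Slc1a3+ cells and 1 in Aspm+ cells, and the Slc1a3+ groups alone called 1. Without the filter, back labelled against total called 2 (Slc1a3), 2 (Aspm) and 1 (K14), and each of the 3 comparisons between back labelled groups called 2. Of the 10 genes most like the members, 5 were kept by Spearman's rho, 2 in the total and 3 in the labelled tail libraries.

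With the replicate block, back Slc1a3+ against total called 1 member, and the block in the tail libraries alone called 2 members in each of the 3 lines. The block in all libraries changed no other count of called members between gates.

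Leaving out 1 library, the counts ranged from 0 to 1 for Slc1a3+ against Dlx1+ cells, 0 to 2 for the totals of these lines, 0 to 1 for the totals of the Aspm and Dlx1 lines, 3 to 5 between sites for Slc1a3+, 3 to 4 for Aspm+ and 4 to 6 for total IFE. Without tail Slc1a3+ replicate 1 or 2 in turn, Krt31 between sites was 2.16 or -0.28 log2 units and Krt84 between Slc1a3+ and Aspm+ cells 0.48 or -0.28. Krt84 between Slc1a3+ cells and total ranged from -0.16 to 0.73 with 1 library left out, and was -0.08 without replicate 1 of the total. Library totals as scaling moved the median of all genes by -0.20 to 0.15 log2 units. Krt34, Krt81 and Krt86 rest on few counts in most libraries, and Krt31 in the Dlx1 totals, which limits what can be detected for them.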
